A study of Mus musculus with 12 samples.

Results

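The clustered protocadherins are a family of neuronal cell adhesion genes that lie in a row on chromosome 18 in an alpha, a beta and a gamma cluster. They were taken here by symbol (Pcdha, Pcdhb and the a, b and c types of Pcdhg), which gave 52 of the 39395 listed genes: 12 alpha, 20 beta and 20 gamma genes. A further 6 genes annotated as Pcdha5, Pcdha11, Pcdhb13, Pcdhb21, Pcdhgb6 and Pcdhga10 were not analysed here. The annotation gives the name Pcdha11 to a pair of genes, and the other one is listed as Pcdha10, the name used below. Of the 52 genes, 51 passed the filter on low counts and were tested. Pcdha4 did not pass, with 1.88 to 10.6 normalized reads per library.

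RNA came from the whole olfactory mucosa of male mice at postnatal day 30, on a mixed 129S6;C57BL/6J background. The 6 wild-type animals were compared with 6 animals lacking 408217 bp of chromosome 7 between positions 102509797 and 102918014 (GRCm38). The series describes this as a large deletion that takes out an enhancer of class I odorant receptor genes. The labels do not say how many copies were deleted or whether animals were littermates.

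Each alpha or gamma gene has its own promoter and a large variable exon, which is spliced to constant exons shared by its whole cluster, while beta genes have no constant exons. A single neuron uses only some of these promoters, and the choice differs between neurons. The cadherin domains encoded by the variable exon bind the same protein on another membrane, which lets a neuron tell its own branches from those of others. In the olfactory system these genes are known for their part in the branching and sorting of sensory axons. The C-type genes at the 3' end of the alpha and gamma clusters are used more constantly than the others.

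On GRCm38 the listed alpha genes run from 36930184 to 37187661, the beta genes from 37264938 to 37524479 and the gamma genes from 37661793 to 37841873, all on the plus strand. All exon bases were a gene's own for 19 of 20 beta genes, and for 0 of the 32 alpha and gamma genes, since these share constant exons. In tested alpha genes 40.1% to 51.4% of exon bases belonged to no other gene of that strand. In Pcdha4 this was 494 of 5768 bases. Levels below are CPM (counts scaled to a common library size) per kb of such own exon, which assumes that reads on shared bases were not counted. How the authors counted such reads is not stated in the labels.

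Sequencing depth, as reads recovered from the deposited values, was 13942401 to 18044908 for wild-type and 10091239 to 18612011 for deletion libraries. The 30 listed genes of the deleted interval had 1522 to 2000 reads in each wild-type library and 0 or 1 in each deletion library. Deletion replicates 2 and 3 stood apart, with at least 1 read on 80.6% and 94.6% of listed genes, against 65.2% to 69.3% in wild-type libraries. The other deletion libraries were at 67.2% (replicate 1), 73.1% (replicate 4), 75.6% (replicate 5) and 67.4% (replicate 6). Of 10 markers of mature olfactory sensory neurons, among them Omp and Cnga2, 10 were tested and 0 passed, and their summed level was 9537 to 12627 CPM in wild-type and 9478 to 12263 CPM in deletion libraries.

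In wild-type mucosa Pcdhb1 stood far above every other member. Its level was 140 ± 13.5 CPM per kb of own exon (SD, n = 6), 20.3 times that of the next beta gene, Pcdhb17, at 6.86 ± 0.589. Pcdhb1 is the first gene of the beta cluster. It gave 64.1% ± 2.16 of the beta CPM and 47.9% ± 2.40 of the CPM of all 52 genes (SD, n = 6). These shares are not scaled by exon length. If reads on shared exons were not counted, alpha and gamma genes weigh too little in the share of all 52. None of its 50-base stretches occurred in another annotated transcript. Whether reads from elsewhere were counted for it was not tested.

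The other beta genes differed in level, without a steady trend along the cluster. Pcdhb2, Pcdhb3, Pcdhb5, Pcdhb6 and Pcdhb8, near the start of the cluster, had 0.406, 0.702, 0.675, 0.899 and 0.712 CPM per kb in wild-type animals. Pcdhb4, Pcdhb7 and Pcdhb9 in the same stretch had 1.26, 3.74 and 6.08. Pcdhb16 and Pcdhb17 towards the end had 6.33 and 6.86, while the other listed genes from Pcdhb14 to Pcdhb22 had 0.909 (Pcdhb15) to 3.26 (Pcdhb20). The lowest beta gene after Pcdhb2 was Pcdhb12 with 0.460. A gene's level thus varied widely between direct neighbours.

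In the alpha cluster the C-type gene Pcdhac2 was highest, at 6.44 ± 0.861 CPM per kb, followed by Pcdha9 at 4.50 ± 0.673 (wild type, SD, n = 6). The other tested alpha genes lay between 0.923 (Pcdha8) and 3.90 (Pcdha3). Both C-type genes together made up 31.4% ± 2.59 of the alpha CPM in wild-type animals and 31.8% ± 1.92 in deletion animals (SD, n = 6).

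In the gamma cluster Pcdhga3 was highest at 3.99 ± 0.285 CPM per kb and Pcdhgc3, a C-type gene, next at 3.62 ± 0.182 (wild type, SD, n = 6), with overlapping spreads. The other C-type genes were among the lowest, with Pcdhgc4 at 0.644 ± 0.138 and Pcdhgc5 at 0.182 ± 0.0655. The A types gave 49.7% of the gamma CPM in wild-type and 48.7% in deletion animals, and the C types 15.3% and 14.9%.

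**Figure D1:**
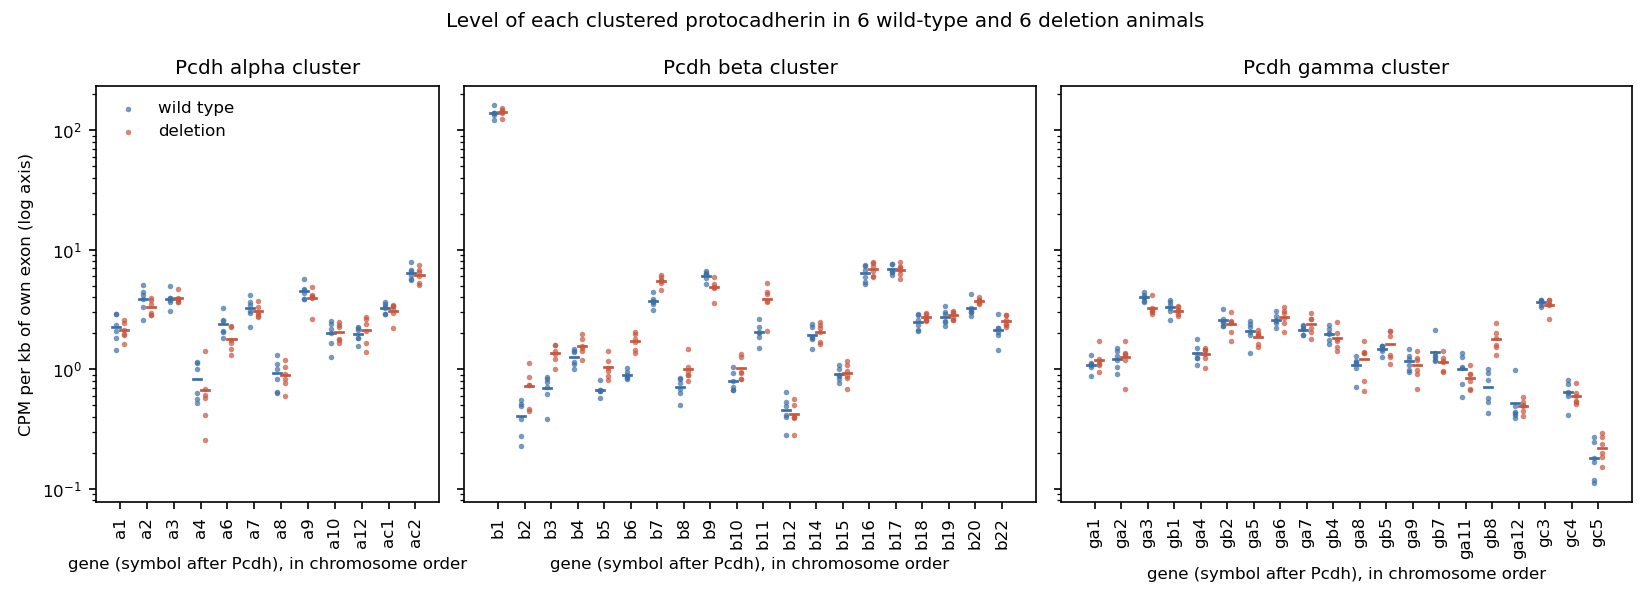
Level of each of the 52 genes in CPM per kb of own exon (log axis), in chromosome order within each cluster, with 1 point per animal and a line at the mean of the 6 wild-type (blue) or 6 deletion (red) animals. Pcdhb1 lies at 140 CPM per kb in wild-type animals, while the next highest gene of any cluster is Pcdhb17 at 6.86, and red lies above blue along Pcdhb2 to Pcdhb8, at Pcdhb11 and at Pcdhgb8.

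Summed over each cluster, the genotypes overlapped. Alpha genes summed to 89.0 ± 8.61 CPM in wild-type animals, against 83.5 ± 6.77 CPM with the deletion (SD, n = 6). Gamma genes summed to 100.3 ± 7.13 and 99.3 ± 8.12 CPM. Beta genes other than Pcdhb1 summed to 202 ± 19.6 CPM in wild-type animals, with a range of 178 to 227, and to 233 ± 17.6 CPM in deletion animals, with a range of 205 to 258. Deletion replicate 2 was the lowest of the deletion animals in this beta sum, and 4 of the others lay above every wild-type animal. In bulk tissue, a change in the number of cells that express a gene and a change in RNA per cell cannot be told apart.

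**Figure D2:**
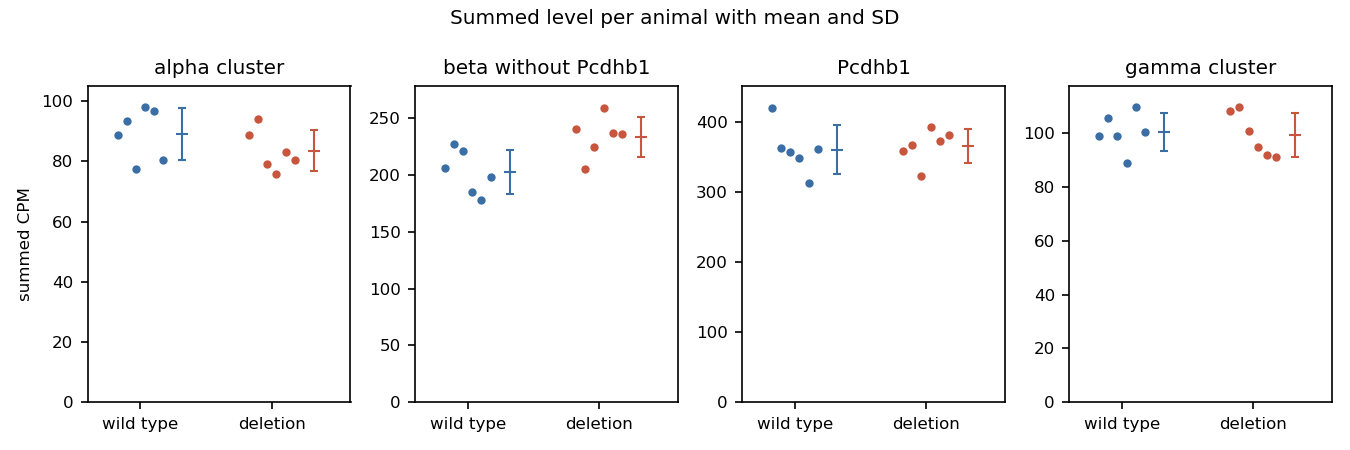
Summed CPM per animal of the alpha cluster, the beta cluster without Pcdhb1, Pcdhb1 alone and the gamma cluster, with points in replicate order and the mean with SD (n = 6) beside them. The ranges of the genotypes overlap in every panel, and the beta sum without Pcdhb1 has a mean of 202 in wild-type and 233 in deletion animals.

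Between genotypes, 4 members rose in deletion animals and 0 fell (limma, adjusted p under 0.05 over 17320 genes). They were Pcdhb3, Pcdhb6 and Pcdhb7 of the beta cluster and Pcdhgb8 of the gamma cluster. Over all tested genes, 0.052% were called higher and 0.445% lower. At an unadjusted limma p under 0.05, 11 members were higher, against 2.02% of all genes, and 3 were lower, against 2.37%. The ranges of the genotypes lay apart for 4 members, all higher in deletion animals, against 0.133% of all genes higher and 0.497% lower. In the authors' deposited table these 4 and Pcdhb11 had an adjusted p under 0.05 and were higher in deletion animals, against 0.0381% of the 39395 listed genes. The same deposited table had 0 members lower at that threshold, against 0.216% of listed genes.

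Pcdhb6 had normalized values of 48.1, 47.4, 57.2, 46.5, 52.8 and 49.5 reads in wild-type replicates 1 to 6. In deletion replicates 1 to 6 they were 76.9, 109, 110, 100, 80.8 and 95.5. Every deletion animal lay above every wild-type animal, and wild-type animals spread by only 8.02% of their mean, less than the 14.1% that counting alone gives on average at this depth. The log2 fold change was 0.90 ± 0.12 (SE; limma adjusted p 0.000290), on the log2(value + 1) scale used for all fold changes here. Like the other beta genes, Pcdhb6 (ENSMUSG00000051678.4, 37333921 to 37337674) encodes a transmembrane protein with extracellular cadherin repeats that takes part in homophilic recognition between neurons.

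Pcdhb7 (ENSMUSG00000045062.4, 37341702 to 37345202), the next gene along, was better counted. Wild-type replicates had 203, 232, 195, 184, 164 and 191 normalized reads. Deletion replicates had 276, 239, 280, 309, 283 and 322. The groups did not overlap, and the closest animals were replicates 2 of either genotype, at 232 and 239. The means were 195 ± 22.7 and 285 ± 28.8 (SD, n = 6), with a log2 fold change of 0.55 ± 0.09 (SE; limma adjusted p 0.00324).

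Pcdhb3 (ENSMUSG00000045498.1, 37300799 to 37304585) had 47.1, 44.2, 48.8, 40.7, 21.7 and 35.2 normalized reads in wild-type replicates. In deletion replicates it had 56.4, 68.5, 86.5, 89.3, 79.8 and 75.9. All deletion animals were above all wild-type animals, with deletion replicate 1 nearest to them. The log2 fold change was 0.95 ± 0.18 (SE; limma adjusted p 0.0137). This call was lost without deletion replicate 4 (limma adjusted p 0.0542) and without deletion replicates 2 and 3 together (limma adjusted p 0.0638), with fold changes of 0.90 and 0.94.

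Pcdhgb8 (ENSMUSG00000103081.2, 37761801 to 37841870) is annotated as a polymorphic pseudogene, which means that its reading frame is intact in some strains and broken in others. Wild-type replicates had 19.9, 30.3, 21.6, 16.3, 37.3 and 34.3 normalized reads. Deletion replicates had 67.7, 74.1, 87.9, 48.9, 59.2 and 57.1, again with no overlap. The mean rose 2.47-fold, from 26.6 ± 8.52 to 65.8 ± 13.9 (SD, n = 6). The log2 fold change was 1.31 ± 0.21 (SE), with a limma adjusted p of 0.00140. Its neighbours on either side did not pass, with log2 fold changes of -0.23 for Pcdhga11 and -0.02 for Pcdhga12.

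Without deletion replicates 2 and 3, limma called Pcdhb6, Pcdhb7 and Pcdhgb8 higher and Pcdhb11 as well.

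**Figure D3:**
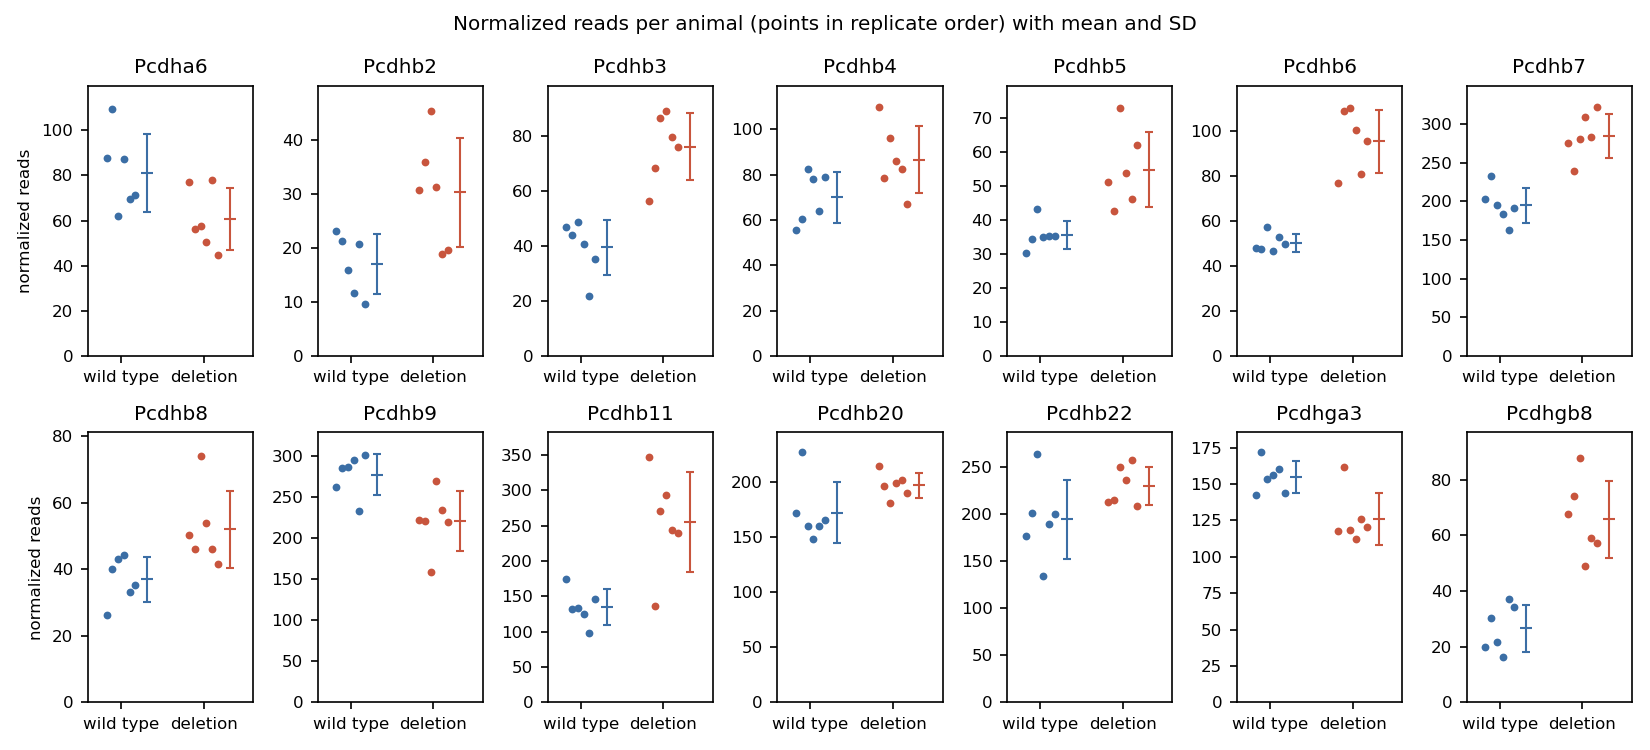
Normalized reads per animal, in replicate order, for the 14 members with an unadjusted limma p under 0.05, with the mean and SD of each genotype (n = 6). The genotypes do not overlap for Pcdhb3, Pcdhb6, Pcdhb7 and Pcdhgb8, and 1 deletion animal, replicate 2, lies within the wild-type range for Pcdhb11 and for Pcdhga3.

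Pcdhb11 missed the threshold narrowly, with 1 animal apart from its group. Wild-type replicates had 175, 132, 134, 125, 98.3 and 147 normalized reads. Deletion replicates had 347, 136, 271, 293, 244 and 240. Deletion replicate 2 thus lay inside the wild-type range and the other 5 above it. The log2 fold change was 0.88 ± 0.19 (SE; limma adjusted p 0.0553), and 1.05 without deletion replicate 2 (limma adjusted p 6.94e-05). It also passed without wild-type replicate 1 (0.96, limma adjusted p 0.0305) and in edgeR (0.93, adjusted p 0.0245) and DESeq2 (0.93, adjusted p 6.30e-05) on the recovered reads. It did not pass when any single library other than these 2 was left out, and the limma adjusted p was then up to 0.225 (without wild-type replicate 4). Without deletion replicate 1 its log2 fold change was lowest, at 0.78.

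The same deletion animal differed from the rest of its group in Pcdhga3, the gamma gene with the highest level, in the opposite direction. Pcdhga3 had 142, 172, 154, 156, 160 and 144 normalized reads in wild-type replicates. In deletion animals it had 118, 162, 118, 112, 126 and 121. Replicate 2 lay in the wild-type range and the other 5 lay below it. The log2 fold change was -0.30 ± 0.10 (SE; limma unadjusted p 0.00748, adjusted p 0.721), and -0.37 without deletion replicate 2 (limma adjusted p 0.108). In Pcdhb6 and Pcdhgb8, by contrast, deletion replicate 2 was the second highest of the deletion animals. It was the lowest of them in Pcdhb7 (239 normalized reads) and Pcdhb5 (42.6), and the second lowest in Pcdhb3 (68.5).

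In gene order, the beta cluster began with little difference. Pcdhb1 had a log2 fold change of 0.02, with a 95% confidence interval of -0.14 to 0.17. The next 7 listed genes, Pcdhb2 to Pcdhb8, all had positive fold changes, from 0.30 to 0.95, each with an unadjusted limma p under 0.05, of which 3 passed over all genes. This run was picked after its values were seen and is a description. Its summed level was 26.3 to 32.6 CPM in wild-type and 41.9 to 53.2 CPM in deletion animals.

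Of the members of this run that did not pass, Pcdhb5 was closest. It had 30.3 to 43.1 normalized reads in wild-type animals, and 51.3, 42.6, 72.8, 53.9, 46.0 and 62.0 in deletion replicates, 5 of them above every wild-type animal (log2 fold change 0.60, limma adjusted p 0.205). Pcdhb8 was above every wild-type animal in 5 deletion animals as well, with means of 37.0 ± 6.85 and 52.0 ± 11.6 (SD, n = 6; 0.48, limma adjusted p 0.897). Pcdhb2, with few reads, had 17.0 ± 5.55 and 30.3 ± 10.1 (0.79, limma adjusted p 0.696). It was highest in deletion replicate 3, and its fold change was 0.56 without deletion replicates 2 and 3. Pcdhb4 had 69.9 ± 11.3 and 86.7 ± 14.8 (0.30, limma adjusted p 0.955).

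The run of positive fold changes was interrupted at Pcdhb9, which had a negative one. Wild-type replicates had 262, 285, 286, 294, 233 and 301 normalized reads. Deletion replicates had 221, 220, 158, 270, 234 and 219, of which 4 lay below every wild-type animal. The log2 fold change was -0.34 ± 0.11 (SE; limma unadjusted p 0.00513, adjusted p 0.617), so the gene did not pass. It was -0.23 without deletion replicates 2 and 3. The next gene, Pcdhb10, had a positive log2 fold change of 0.32 (limma unadjusted p 0.0792, adjusted p 0.955) and overlapping ranges.

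Past Pcdhb11 the beta genes differed little between genotypes. Pcdhb12 had a log2 fold change of -0.12, and the 8 listed genes from Pcdhb14 to Pcdhb22 had a median of 0.10 and a range of -0.02 to 0.26. In that stretch Pcdhb20 (0.21) and Pcdhb22 (0.26) had an unadjusted limma p under 0.05 and overlapping ranges. Over the whole beta cluster 17 of 20 fold changes were positive, with a median of 0.23, where 45.9% of all tested genes were positive and their median was -0.01.

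**Figure D4:**
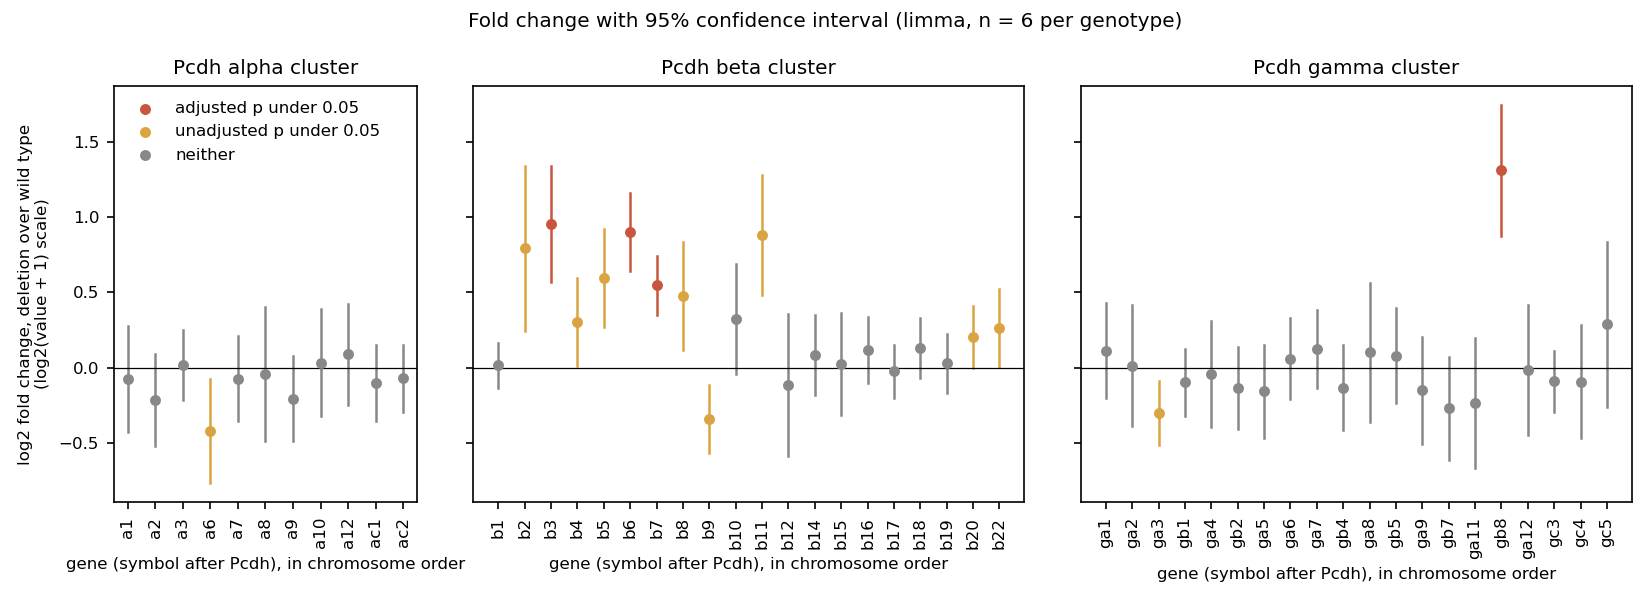
log2 fold change of deletion over wild type for the 51 tested members in chromosome order, with 95% confidence intervals (limma, n = 6 per genotype). Red points passed the adjusted threshold, yellow points had an unadjusted p under 0.05, and grey points neither, and the positive run from Pcdhb2 to Pcdhb8 lies between Pcdhb1 at 0.02 and Pcdhb9 at -0.34.

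The alpha cluster had no gene that passed. Of 11 tested alpha genes, 3 fold changes were positive and 8 negative, with a median of -0.07. Pcdha6 had the only unadjusted limma p under 0.05 there. Of its 50-base stretches 28.6% also occur in other annotated genes, of which Gm36858 shares most, and 399 of its own exon bases lie under an antisense exon. It had 61.9 to 110 normalized reads in wild-type and 44.9 to 78.0 in deletion animals (-0.42 ± 0.17 SE, p 0.0208, limma adjusted p 0.955). The C-type genes had log2 fold changes of -0.10 for Pcdhac1 (95% confidence interval -0.35 to 0.15) and -0.07 for Pcdhac2 (-0.29 to 0.15).

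In the gamma cluster Pcdhgb8 was the 1 gene of 20 that passed. Of the fold changes, 8 were positive and 12 negative, with a median of -0.07. The C-type genes Pcdhgc3, Pcdhgc4 and Pcdhgc5 had -0.09, -0.09 and 0.29, with 95% confidence intervals of -0.29 to 0.11, -0.46 to 0.28 and -0.26 to 0.84. The wide interval of Pcdhgc5 goes with 77 reads over the wild-type libraries and 90 over the deletion libraries. For these and the other genes that did not pass, equal levels are not shown.

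**Figure D5:**
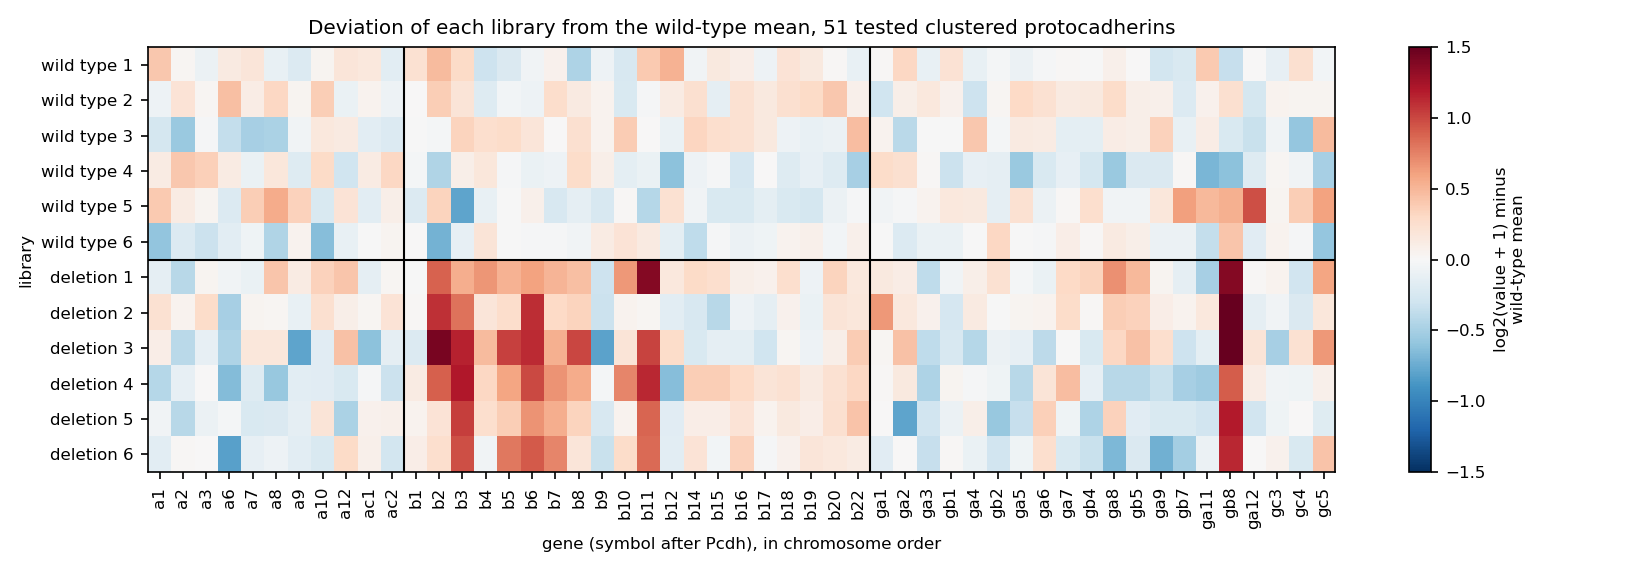
Deviation of each of the 12 libraries from the wild-type mean on the log2(value + 1) scale for the 51 tested members in chromosome order, with colours ending at 1.5 in either direction. Pcdhb3, Pcdhb6, Pcdhb7 and Pcdhgb8 are red in every deletion library, while Pcdhb4 is near white in deletion replicate 6 and Pcdhb11 in deletion replicate 2.

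Members resemble each other in sequence, so reads can fit several of them. The share of 50-base stretches of own exon that also occur in a transcript of another annotated gene had a median of 14.9% in tested alpha, 3.65% in beta and 0.877% in gamma genes. Among the called genes it was 2.89% for Pcdhb3, 7.54% for Pcdhb6, 8.57% for Pcdhb7 and 9.18% for Pcdhgb8. The relatives that shared most with them were Pcdhb9, Pcdhb8, Pcdhb9 and Pcdhgb2. For Pcdhb9 it was 8.75%, and Pcdhb7 was the gene that shared most.

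The rise along the run was larger than the drop of Pcdhb9. Summed over Pcdhb2 to Pcdhb8, the mean rose by 236 normalized reads, of which Pcdhb7 gave 89.9, and Pcdhb11 rose by a further 120, while the mean of Pcdhb9 dropped by 56.6. Pcdhb7 and Pcdhb9 added together had 472 ± 41.0 normalized reads in wild-type animals, against 505 ± 51.9 with the deletion (SD, n = 6), with overlapping ranges. Whether the assignment of shared reads had a part in these changes was not tested. Antisense exons are annotated over own exon bases of 11 members, none of them among the 4 called genes.

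Animals of 1 genotype also varied. Across tested genes of a cluster, the median coefficient of variation between wild-type animals was 19.8% in alpha, 15.7% in beta and 17.6% in gamma, where the counts alone give 9.93%, 8.20% and 13.4%. In deletion animals these medians were 16.2%, 16.2% and 18.2%. The steadiest gene between wild-type animals was Pcdhgc3, at 4.94%, and the least steady Pcdhga12, at 43.2%, with 66.2 normalized reads in wild-type replicate 5 and 26.3 to 33.5 in the others.

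The nearest tested genes around the clusters and the tested genes within their span did not pass. Genes further out were not part of these lists. Of the 10 nearest tested genes before the alpha cluster, from Cd14 to Vaultrc5, and the 10 nearest after the gamma cluster, from Diaph1 to Rnf14 (Pcdh1 and Pcdh12 among them), 0 were called, also at an unadjusted limma p under 0.05, with medians of -0.10 and 0.01. Taf7, a subunit of the general transcription factor TFIID whose gene lies between the beta and gamma clusters, had 322 ± 45.5 and 339 ± 30.2 normalized reads (SD, n = 6; log2 fold change 0.08). Slc25a2, an ornithine transporter gene beside it, was too low to test, with 4.41 ± 2.49 and 6.58 ± 2.53. Of 18 other genes listed within the span of the clusters, Taf7 and Slc25a2 included, 8 were tested and 0 called by limma, also at an unadjusted p under 0.05.

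Relatives and known regulators of the family showed no call either. Of 12 non-clustered protocadherins, which are single genes outside the clusters and include the neighbours Pcdh1 and Pcdh12, 0 passed, with a median log2 fold change of 0.01. The smallest p was that of Pcdh18 (447 ± 80.7 and 366 ± 65.2 normalized reads, SD, n = 6; -0.28, limma adjusted p 0.955). Of 23 chromatin factors that act on protocadherin promoters, among them Ctcf, the cohesin subunits and Smchd1, 0 were called, also at an unadjusted limma p under 0.05, and fold changes ran from -0.07 to 0.12. Smchd1, a repressor of these clusters, had 2376 ± 173 and 2492 ± 166 normalized reads (0.07), and Tet1, which oxidizes methylated cytosine, a log2 fold change of 0.09.

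Of 18 tested partners and processing enzymes, 0 passed. At an unadjusted limma p under 0.05, Nlgn2, a synaptic adhesion protein, was lower (-0.26) and Prkca, a protein kinase C, higher (0.16), both with a limma adjusted p of 0.955. Of 8 markers of immature sensory neurons, the cells that extend axons, 0 passed. Dpysl3, which acts in axon growth, came closest, with 6863 ± 281 normalized reads in wild-type animals, 8278 ± 621 with the deletion and no overlap of the ranges (SD, n = 6). Its log2 fold change was 0.27, with a limma adjusted p of 0.0694. The other markers of this list had log2 fold changes from -0.11 (Stmn4) to 0.07 (Hdac2). Over all 8 markers the median log2 fold change was 0.04. Their summed level was 1165 to 1281 CPM in wild-type and 1211 to 1421 CPM in deletion libraries. The 5 precursor markers were all positive, with a median of 0.15 and 0 called. Neurod1 among them had 0.23 (limma unadjusted p 0.0270, adjusted p 0.955). Their summed level was 63.7 to 75.7 CPM in wild-type and 71.9 to 91.8 CPM in deletion libraries. The part of either marker list in the protocadherin changes was not tested. Of the tested markers of the other cell types (basal, sustentacular, gland, glial, immune, endothelial, connective tissue and blood), 0 passed in limma. Cyp1a2 of sustentacular cells (-0.21) and Cd74 of immune cells (-0.25) had an unadjusted limma p under 0.05. Fold changes were positive for 0 of 4 basal, 0 of 4 gland, 0 of 4 immune, 0 of 3 endothelial and 0 of 4 connective tissue markers. They were positive for 1 of 5 glial, 2 of 5 sustentacular, 3 of 3 blood and 1 of 10 mature neuron markers.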

How the data were processed

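Total RNA of 12 olfactory mucosae was sequenced from ribodepleted, strand-specific libraries, per the labels' protocols. Per the submitters' processing notes STAR 2.6.0 and DESeq2 were used with GRCm38.p6; the read counter and the annotation are not stated there. The deposited signal values are read counts that the authors divided by a size factor per library: 100% were whole multiples of the smallest value (tolerance 0.01 of a read). Genes with a value in all libraries numbered 39395, and 1 further row lacked values and was dropped. The authors' deposited log2 fold change is wild type over deletion, opposite to the sign printed here; their p-value and adjusted p-value are named where used, and the deposited Wald score was not used.

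The main test was limma 3.58.1 (R 4.3.3; trend, robust) on log2(value + 1) with group as the only term, two-sided and Benjamini-Hochberg adjusted over 17320 genes that passed filterByExpr (edgeR 4.0.16, minimum count 10). CPM used TMM library sizes. Alternatives were edgeR, DESeq2 1.42.0, scaling, pseudocount, filter, replicate block and left-out libraries. The test was checked on simulated data. Gene models were from GENCODE M21 on GRCm38, matched for 39296 rows; stretches of 50 bases were compared with its transcripts. The row named Pcdha10 in the table carries the symbol Pcdha11 there, as does another gene that was not analysed here. Named members were those with an unadjusted p under 0.05, the 2 with the highest level per cluster, the C-type genes and the genes lying between the clusters. Members and lists were chosen with earlier results of these data known. P-values measure the spread between animals as labelled.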

Additional observations from a re-analysis of the deposited data

Results flagged for a closer look

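Single animals stood apart from the other 5 of their genotype in 4 of 50 sets of 6 values (22 named members and 3 cluster sums, both genotypes), where chance gives about 2.5. Among deletion animals, Pcdhga3 was at 162 normalized reads in replicate 2 while the rest had 112 to 126. In deletion replicate 3, the library with the fewest reads, the C-type gene Pcdhac1 was at 81.0 normalized reads, against 113 to 131, and the C-type gene Pcdhgc3 at 129, against 174 to 191. Among wild-type animals, Pcdhb20 was at 227 normalized reads in replicate 2 while the rest had 149 to 173.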

How the results depend on the processing

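Under 21 alternatives, Pcdhb6 and Pcdhgb8 were called in each, and 0 members were called lower in any. With 1 library left out, 3 to 5 members and 6 to 17 of all genes were called higher, and 73 to 83 of all genes lower. In the main test 9 of all genes were called higher, against 15 in DESeq2, 16 with no filter, 17 without deletion replicate 2, 23 without deletion replicates 2 and 3, and 5 with the replicate block. With that block, Pcdhb3 (adjusted p 0.0648) and Pcdhb7 (adjusted p 0.0543) lost their call and Pcdhb11 gained it (adjusted p 0.0130). The labels do not say whether same-numbered animals belong together. In their deviations from the group means, same-numbered libraries correlated at -0.24 to -0.01, and 0 of 6 correlated best with its own number. Such correlations cannot settle whether animals were paired. Signs near 0 turned, none of them called: Pcdhac1 to 0.00241 without deletion replicate 3, Pcdhb1 to -0.02488 without wild-type replicate 5, -0.00685 without deletion replicate 4 and -0.00109 without deletion replicate 6, and Pcdhb17 to 0.00443 and 0.00537 without wild-type replicates 2 and 3, to 0.0319 without deletion replicate 3 and 0.0749 without deletion replicates 2 and 3. With 1 library left out the log2 fold change was at lowest -0.136 for Pcdhac1, at highest 0.0611 for Pcdhb1, and between -0.0672 and 0.0319 for Pcdhb17. The ratio of cluster sums moved by less than the spread between animals. The causes were not tested. Genes with few reads, such as Pcdhb2 and Pcdhgc5, are limited by depth.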

Other observations

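Pcdhgb5, a gamma gene outside the naming rule and picked after its values were seen, spread more widely between deletion than between wild-type animals. Wild-type replicates had 87.3 to 108 normalized reads. Deletion replicates 1 to 6 had 142, 129, 137, 75.8, 90.2 and 87.3, so that 3 lay above every wild-type animal. The means were 102 ± 8.24 and 110 ± 29.1 (SD, n = 6), and the log2 fold change was 0.08.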
